A study of Rattus norvegicus with 24 samples.

Results

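The 10 genes described here encode the chaperones Hspd1, Hspe1 and Hspa9, the proteases Lonp1 and Clpp, the biogenesis regulators Ppargc1a, Nrf1 and Tfam, and the fusion proteins Opa1 and Mfn2 of the mitochondrion. They were taken by symbol from the annotation of the array, with the transcript cluster of highest mean for each symbol, and are 10 of 22093 genes with a symbol. A transcript cluster is the set of probes for 1 transcribed unit, and each of the 10 genes had 1 cluster. All 10 were brighter on average than the median cluster, which had a log2 intensity of 6.24. Nrf1 is here nuclear respiratory factor 1, not the stress regulator Nfe2l2, whose protein has a similar name.

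Most proteins of the mitochondrion are made in the cytosol, imported unfolded, and folded in the matrix by Hspa9 and by the chamber that Hspd1 forms with its lid Hspe1. The matrix proteases Lonp1 and Clpp remove damaged proteins, and when unfolded proteins build up, cultured mammalian cells raise the transcripts of these chaperones and proteases in what is called the mitochondrial unfolded protein response. Ppargc1a is a coactivator that works through Nrf1 to switch on nuclear genes for mitochondria, among them Tfam, which packs and transcribes mitochondrial DNA. Opa1 fuses the inner and Mfn2 the outer membrane.

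RNA of the brain stem was measured in 24 male RccHan Wistar rats, 7 to 8 weeks old, with 1 Rat Transcriptome Array (RTA 1.0) for each rat. The control groups received untreated food and the treated groups received food with 400 ppm rotenone, an inhibitor of complex I of the respiratory chain, and each was studied after 1, 3 or 14 days, which gave 6 groups of 4 rats. All groups were of 1 strain and 1 sex, and the rats of each day had controls of the same day. The question was whether the 10 transcripts differed between treated and control rats at each duration, and between durations.

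The arrays were alike overall (Pearson's r between arrays 0.984 to 0.995 over all clusters). The label brain stem was checked with 9 measured marker genes of this region, whose mean log2 intensity lay between 9.01 and 10.61, and with 7 neuronal genes, whose mean lay between 15.16 and 15.45. The lowest brain stem mean was in the control day 1 group, in which replicates 1 and 3 also held transcripts of the neighbouring cerebellum. The mean of 11 cerebellar genes was 12.56 and 12.03 in these replicates and lay between 7.93 and 9.11 in the other 22 arrays. Many results that rest on the controls of day 1 moved without these 2 arrays, and values without them are given as well. Such values rest on only 2 controls of day 1, replicates 2 and 4, beside 4 treated rats. The cerebellar means of these 2 controls, 8.76 and 8.63, were above those of the treated rats of day 1, 8.00 to 8.57. The mean of 10 choroid plexus genes also varied between arrays, from 6.36 to 9.71, with the highest value in rotenone day 14 replicate 1. In whole tissue, fewer cells of a type and less RNA per cell cannot be told apart.

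None of the 10 genes differed between treated and control rats by more than the spread between rats allowed limma to call. At an adjusted p under 0.05 over 68842 clusters, 0 of 10 passed at day 1, day 3, day 14 and for the average over the days, where 0%, 0%, 0.0378% and 0.00291% of all clusters passed. At an unadjusted p under 0.05 there were 1 of 10 genes at day 1, 0 at day 3, 2 at day 14 and 1 for the average, beside 7.65%, 3.17%, 10.8% and 10.8% of all clusters. These counts are near the background and are no result about the 10 genes. Without the 2 arrays with cerebellar transcripts there were 0 of 10 at day 1 (3.27% of all clusters) and 3 of 10 for the average (9.11%), Hspd1, Hspe1 and Ppargc1a, and 0 of 10 passed after adjustment (0% and 0.0102%). A version of the criteria of the study, which ask for a mean ratio of at least 1.8, was also applied, without the study's test of time alone. It was met by 0 of the 10 genes and by 0.0247% of the clusters, which is 17 clusters. The paper reports more genes for the brain stem by its own version, so its selection was not reproduced.

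The 30 differences between treated and control rats, 10 genes at 3 durations, were at most 0.21 on the log2 scale in size. Of their 95% intervals, 27 held 0. The lowest bound was -0.41 and the highest 0.36, so that all 30 intervals lay within a ratio of 1.8 in either direction, which is 0.85 on the log2 scale. The signs of the 10 differences were not of 1 kind at any duration. At day 1, 9 of 10 were above 0 (57.9% of all clusters), at day 3 4 of 10 (50.3%) and at day 14 4 of 10 (61.4%). For the average it was 5 of 10 (59.8%), and 2 of 10 (59.4%) without the 2 arrays with cerebellar transcripts. The count at day 14 moved with the scaling, to 6 of 10 after quantile normalization and to 1 of 10 with the arrays centred on their median, while those at days 1 and 3 did not.

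**Figure D1:**
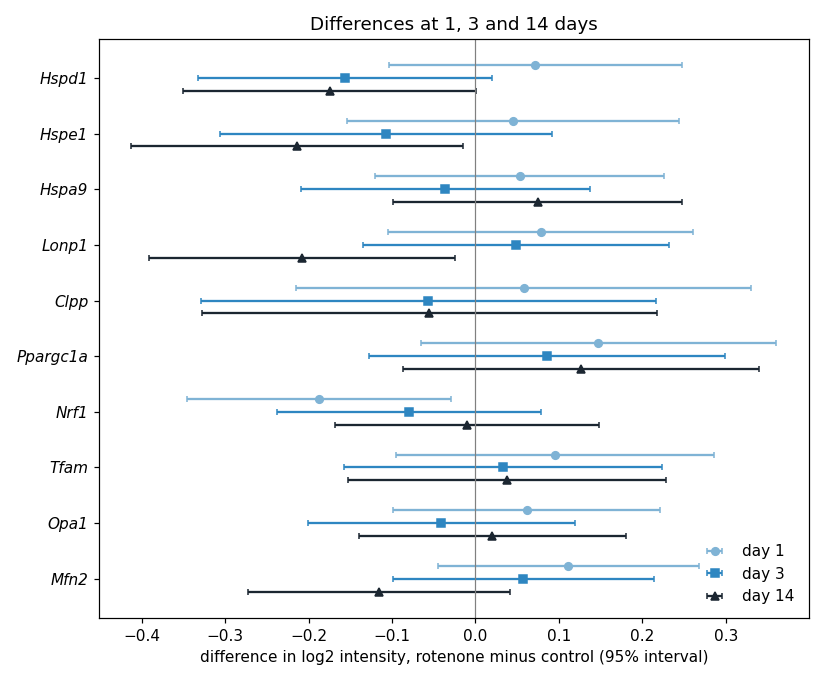
Difference in log2 intensity between rotenone and control at days 1, 3 and 14 for the 10 genes, with 95% intervals from limma (4 rats against 4). Intervals away from 0 are those of Nrf1 at day 1 and of Hspe1 and Lonp1 at day 14, and none has an adjusted p under 0.415.

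The chaperonin genes Hspd1 and Hspe1 lie head to head on rat chromosome 9, and the region between them is shown since both are read from it in opposite directions. In RefSeq (GRCr8), a window of 250 bases before to 50 bases after the start was found for 8 of the 10 genes, all but Lonp1 and Mfn2. The stretch below is the 250 bases before the start of Hspe1, chr9:64084077-64084326 on the plus strand. Capitals mark 2 matches to the heat shock element TTCNNGAA, the motif bound by heat shock factors, which reads the same on both strands. They begin 65 and 55 bases before the start of Hspe1, and on the other strand the same letters begin 242 and 232 bases before the start of Hspd1.
Hspe1: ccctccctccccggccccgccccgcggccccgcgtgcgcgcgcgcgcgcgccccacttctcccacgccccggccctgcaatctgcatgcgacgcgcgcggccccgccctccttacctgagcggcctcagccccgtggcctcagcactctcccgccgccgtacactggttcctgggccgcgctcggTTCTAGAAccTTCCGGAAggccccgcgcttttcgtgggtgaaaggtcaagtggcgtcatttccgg
The element was present in the windows of Hspd1, Hspe1, Hspa9 and Clpp, 4 of 8, and in 8.77% of 33469 windows of the same 300 bases. The windows of Hspd1 and Hspe1 overlap and hold the same 2 matches, so the 4 are not 4 separate stretches. A match is a description of the letters and was not tested as a site.

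Hspd1, which encodes the barrel of the chaperonin, had similar levels in treated and control rats at day 1 and lower levels in the treated rats at day 3 and day 14. At day 14 the control rats had log2 intensities of 13.65, 13.60, 13.65 and 13.72, and the treated rats had 13.53, 13.41, 13.50 and 13.46. All 4 treated rats lay below all 4 controls. The difference was -0.18 (standard error 0.08, 95% interval -0.35 to 0.00074, adjusted p = 0.466 from limma), and the exact permutation test gave p = 0.0286, the smallest that 4 rats against 4 can give. At day 3 the controls had 13.69, 13.64, 13.62 and 13.69 and the treated rats 13.60, 13.44, 13.52 and 13.44, again without overlap. The difference there was -0.16 (standard error 0.08, adjusted p = 1.00 from limma). Groups in which every treated rat was lower made up 1.08% of all clusters at day 3 and 2.81% at day 14, and 1 and 2 of the 10 genes were among them. At day 1 the groups overlapped, with 13.19, 13.50, 13.35 and 13.63 in the controls and 13.53, 13.60, 13.48 and 13.35 in the treated rats, and the difference was 0.07 (standard error 0.08). The 2 lowest controls were the arrays with cerebellar transcripts, and without them the difference was -0.08 (standard error 0.09, adjusted p = 1.00 from limma). Over the 3 durations the difference of Hspd1 was -0.09 with all arrays (adjusted p = 0.527) and -0.14 without those 2 (adjusted p = 0.386 from limma). RefSeq lists 22 further rat genes and pseudogenes named after Hspd1, 4 of which have clusters of their own on the array, so that probes may be shared between copies.

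Hspe1, the lid of the chamber, had the largest difference of the 30, at day 14. The controls had 13.35, 13.39, 13.50 and 13.57, and the treated rats had 13.43, 13.16, 13.20 and 13.18. Treated replicate 1 lay among the controls, and the other 3 treated rats lay below every control. The difference was -0.21 (standard error 0.10, 95% interval -0.41 to -0.01, adjusted p = 0.438 from limma), from 13.45 ± 0.10 to 13.24 ± 0.12 (SD, n = 4). Without treated replicate 1 the difference was -0.28. At day 3 the difference was -0.11 (95% interval -0.31 to 0.09) and at day 1 0.04 (95% interval -0.15 to 0.24), with overlap at both. RefSeq names 1 pseudogene of Hspe1.

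Hspa9, also called mortalin, pulls proteins through the inner membrane as the motor of import. Its differences were 0.05, -0.04 and 0.07 at days 1, 3 and 14, each with a standard error of 0.08. At day 14 the controls ranged from 14.45 to 14.64 and the treated rats from 14.56 to 14.72, with overlap. The interval of that difference was -0.10 to 0.25, and so did not reach the values that Hspd1 and Hspe1 took at the same time, but the difference between the genes was not tested. With the arrays centred on their median the difference of Hspa9 at day 14 was -0.02, with the sign of Hspd1 (-0.27) and Hspe1 (-0.30).

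Among the proteases, Lonp1, the ATP-dependent Lon protease, had the smallest p of the 10 genes at day 14. The controls had 10.24, 10.03, 10.25 and 10.19, and the treated rats had 10.02, 9.93, 9.88 and 10.05. Control replicate 2 was as low as the highest treated rats, and the other 3 controls were above every treated rat. The difference was -0.21 (standard error 0.09, 95% interval -0.39 to -0.02, unadjusted p = 0.0279, adjusted p = 0.415 from limma). It was -0.14 after quantile normalization and -0.30 with centred arrays. At day 1 it was 0.08 and at day 3 0.05, with all arrays. Without the 2 arrays with cerebellar transcripts the difference at day 1 was -0.04, of the same sign as at day 14, and at day 3 it was -0.01 without rotenone day 3 replicate 2. The change of the difference from day 1 to day 14 was -0.29 (95% interval -0.55 to -0.03, adjusted p = 0.763 from limma) with all arrays. It was -0.17 (adjusted p = 1.00) without the controls of day 1 that held cerebellar transcripts.

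Clpp, the proteolytic core of the ClpXP protease, varied most between rats of a group. The controls of day 14 spread from 8.39 to 8.96 and the treated rats from 8.49 to 8.64. The differences were 0.06, -0.06 and -0.06 at the 3 durations, each with a standard error of 0.13, and the interval at day 14 was -0.33 to 0.22. A difference of that size in either direction was not detectable with this spread.

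Ppargc1a, the coactivator known as PGC-1alpha, had higher means in the treated rats at each duration. At day 1 the controls had 11.23, 11.10, 11.32 and 11.22, and the treated rats had 11.34, 11.40, 11.38 and 11.33. All 4 treated rats lay above all 4 controls, by a small margin (highest control 11.32, lowest treated rat 11.33), as in 2.42% of all clusters. The difference was 0.15 (standard error 0.10, 95% interval -0.07 to 0.36, adjusted p = 0.770 from limma). At day 3 it was 0.09 (95% interval -0.13 to 0.30). At day 14 the controls had 11.70, 11.17, 11.17 and 11.24, and the treated rats had 11.37, 11.60, 11.37 and 11.44. Control replicate 1 was above all treated rats, and the other 3 controls were below all of them. The difference was 0.13 (95% interval -0.09 to 0.34) with this control and 0.25 without it. With all arrays it was 0.19 after quantile normalization and 0.04 with the arrays centred on their median. Over the 3 durations it was 0.12 (standard error 0.06, 95% interval -0.0032 to 0.24, adjusted p = 0.472 from limma), and 11 of 12 treated rats were above the control mean of their day.

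The stretch before the start of Ppargc1a is shown since it was the only window of the 8 with the cyclic AMP response element TGACGTCA, marked in capitals, through which cyclic AMP signals induce this gene in liver and muscle. It is the 250 bases chr14:63634058-63634307 on the plus strand (GRCr8), and the element begins 181 bases before the start.
Ppargc1a: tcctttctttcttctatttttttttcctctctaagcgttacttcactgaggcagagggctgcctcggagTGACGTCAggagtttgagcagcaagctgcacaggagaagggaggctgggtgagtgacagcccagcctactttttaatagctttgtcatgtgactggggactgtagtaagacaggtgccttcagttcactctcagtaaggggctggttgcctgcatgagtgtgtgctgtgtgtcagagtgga
The element occurred in 1.83% of the 33469 windows.

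Nrf1, which binds promoters of nuclear genes for the respiratory chain, had the smallest p of the 10 genes at day 1 with a sign opposite to that of Ppargc1a. The controls had 8.27, 8.22, 8.40 and 8.21, and the treated rats had 8.10, 8.07, 7.99 and 8.18. All 4 treated rats were below all 4 controls, as in 1.21% of all clusters. The difference was -0.19 (standard error 0.08, 95% interval -0.35 to -0.03, unadjusted p = 0.0225, adjusted p = 0.577 from limma). The highest control was replicate 3, an array with cerebellar transcripts, and without replicates 1 and 3 the difference was -0.13 (standard error 0.09, adjusted p = 1.00 from limma). At day 3 it was -0.08 and at day 14 -0.01, with overlap at both. The full consensus motif of Nrf1, searched on both strands, was in 0 of the 8 windows and in 1.24% of all windows, which says only that these letters were not in these windows.

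Tfam, the mitochondrial transcription factor, had differences of 0.10, 0.03 and 0.04 with a standard error of 0.09 each. At day 14 the controls ranged from 9.19 to 9.51 and the treated rats from 9.29 to 9.41, entirely within the range of the controls. Each of its 3 intervals held 0, and their bounds lay between -0.16 and 0.29.

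Of the fusion genes, Mfn2 was lower in every treated rat than in every control at day 14. The controls had 11.74, 11.78, 11.90 and 11.84, and the treated rats had 11.68, 11.71, 11.73 and 11.67. The lowest control (11.74) and the highest treated rat (11.73) lay next to each other. The difference was -0.12 (standard error 0.08, 95% interval -0.27 to 0.04, adjusted p = 0.598 from limma), or -0.05 after quantile normalization and -0.21 with the arrays centred on their median. At days 1 and 3 it was 0.11 and 0.06. The value of day 1 was 0.0067 without the 2 arrays with cerebellar transcripts. Opa1, the dynamin-like protein of the inner membrane, had differences of 0.06, -0.04 and 0.02 at the 3 durations. At day 14 its treated rats lay close together, from 12.70 to 12.73, within the control range of 12.63 to 12.76.

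**Figure D2:**
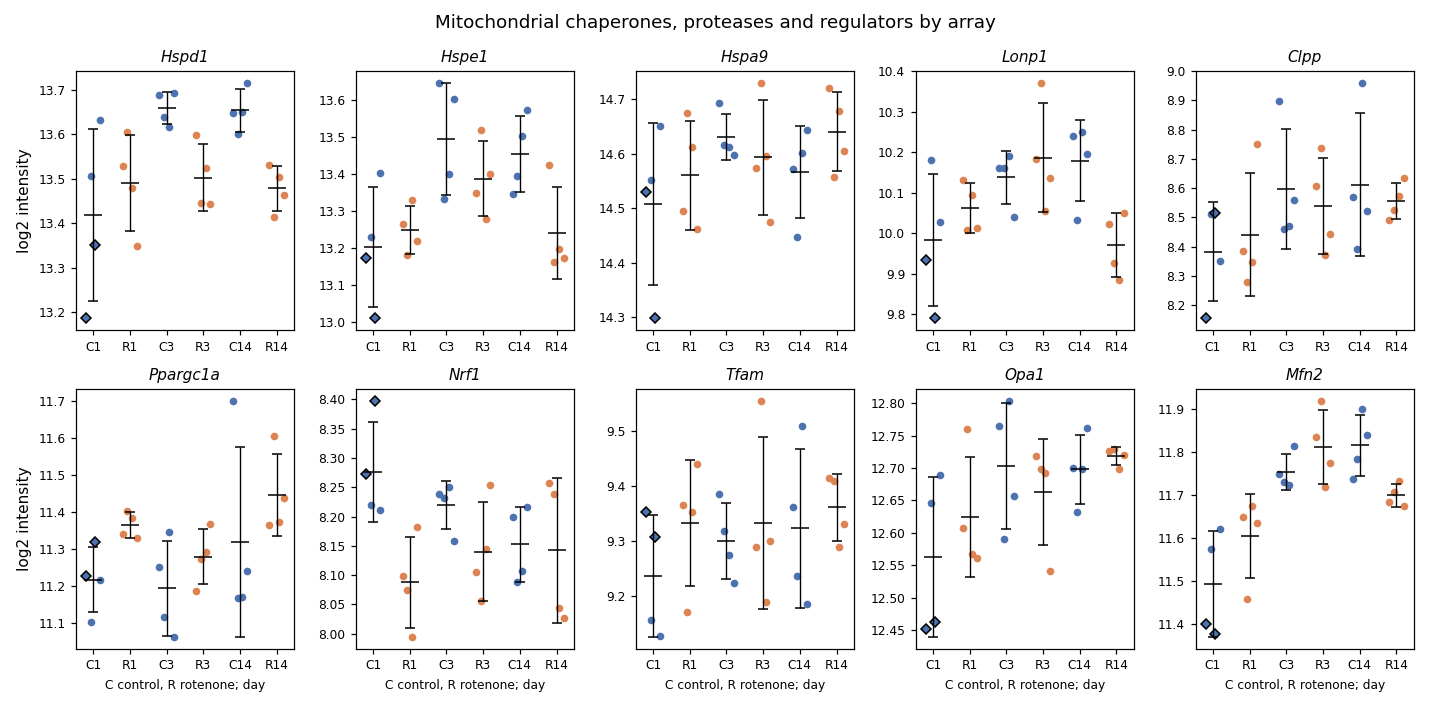
Log2 intensity of the 10 genes in each of the 24 arrays (C control, blue, and R rotenone, orange, at days 1, 3 and 14), with the mean and SD of each group of 4. Diamonds are the 2 control arrays of day 1 with cerebellar transcripts, which are the lowest 2 of all arrays in Opa1 and Mfn2 and the highest 2 in Nrf1.

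The durations were also compared with each other, where the age of the rat and the day of necropsy go with the duration and cannot be told apart from it. In the controls, 9 of 10 genes were higher at day 14 than at day 1 (48% of all clusters), with a median of 0.17 against -0.01 for all clusters. Mfn2 had 11.40, 11.57, 11.38 and 11.62 in the controls of day 1, below all 4 controls of day 14 and all 4 of day 3. Its difference between day 14 and day 1 was 0.32 (standard error 0.08, unadjusted p = 0.000327, adjusted p = 0.220 from limma). Hspe1 had a difference of 0.25, Hspd1 0.23, Clpp 0.23 and Lonp1 0.20, and 4 of the 10 genes (12.6% of all clusters) had an unadjusted p under 0.05. Mfn2 was the only one of the 10 without overlap between these groups, and likewise between day 3 and day 1, where 2.38% of all clusters were higher without overlap in each comparison. None of the 10 passed after adjustment, where 0% of all clusters did. Nrf1 was the only one of the 10 genes below 0, at -0.12. Between day 3 and day 1, 8 of 10 were above 0 (53% of all clusters), 3 had an unadjusted p under 0.05 (8.15% of all clusters) and 0 passed. Over the 3 control groups, 3 of the 10 had an unadjusted p under 0.05 in limma's F test, Hspd1, Hspe1 and Mfn2 (9.08% of all clusters), and 0 passed.

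Several of these differences changed without the 2 arrays with cerebellar transcripts. Without them the 10 differences between control days 14 and 1 had a median of 0.11 and ranged from -0.06 to 0.22, with 8 of 10 above 0 (47.4% of all clusters). Mfn2 then differed by 0.22 and Hspd1 by 0.09 (adjusted p = 0.998 for each from limma), and Mfn2 alone had an unadjusted p under 0.05 (3.66% of all clusters). Hspe1 differed by 0.14, Clpp by 0.18, Lonp1 by 0.07 and Nrf1 by -0.06. The differences of Tfam and Ppargc1a were larger without the 2 arrays, 0.18 against 0.09 and 0.16 against 0.10. Between control days 3 and 1, 10 of 10 were then above 0 (53.3% of all clusters), with a median of 0.06, and 0 had an unadjusted p under 0.05 (2.41%). In the F test over the 3 control groups 0 of 10 had one (3.04%). With both arrays Mfn2 levels went down with the cerebellar mean over the 24 arrays (Pearson's r = -0.68), as did Opa1 (r = -0.64) and Hspd1 (r = -0.59), and Nrf1 levels went up with it (r = 0.50). In the other 22 arrays these values were -0.07, 0.13, 0.21 and 0.01. The points are single rats of 6 groups, and the cerebellar mean of replicates 1 and 3 was far from all others, so that the values over 24 arrays describe these 2 arrays.

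**Figure D3:**
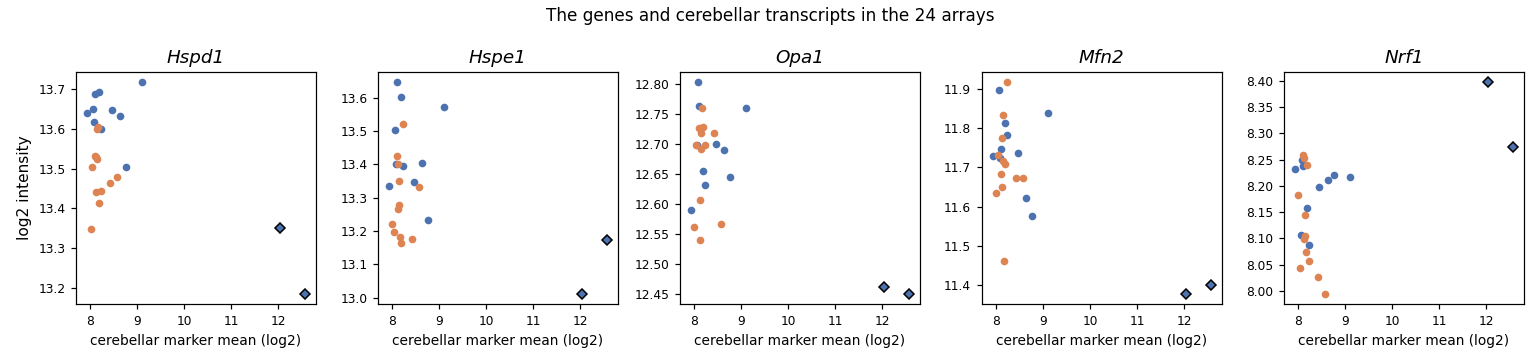
Log2 intensity of Hspd1, Hspe1, Opa1, Mfn2 and Nrf1 (y) against the mean log2 intensity of 11 cerebellar genes (x) in the 24 arrays (blue control, orange rotenone). The 2 diamonds at the right, control day 1 replicates 1 and 3 at 12.56 and 12.03, stand away from the other 22 arrays between 7.93 and 9.11.

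In the treated rats the median difference of the 10 genes between day 14 and day 1 was 0.07, with 7 of 10 above 0 (52.5% of all clusters), and 0 of 10 had an unadjusted p under 0.05 (5.17% of all clusters). After adjustment 0 of 10 and 0.0305% of all clusters passed. Over the 3 treated groups, 0 of 10 and 0.0407% of all clusters passed after adjustment. Of the 5.76% of all clusters with an unadjusted p under 0.05 there, Mfn2 was the only gene of the 10 (unadjusted p = 0.0399, adjusted p = 0.850, F test of limma), with means of 11.60, 11.81 and 11.70 at days 1, 3 and 14. A difference between treated and control rats that itself depended on the day was called for 0 of the 10 genes (limma F test, 0% of all clusters). Their smallest adjusted p was 0.962, and 0 of 10 had an unadjusted p under 0.05 (5.1% of all clusters). For the change from day 1 to day 14 alone, Lonp1 and Mfn2 had an unadjusted p under 0.05 (6.37% of all clusters), 2 of 10 were above 0 (55.3%) and 0 of 10 passed (0.00291%). Without the 2 arrays with cerebellar transcripts, 0 of 10 had an unadjusted p under 0.05 (3.79%) and 3 of 10 were above 0 (54.6%). The change of Mfn2 was then -0.12 (unadjusted p = 0.272, adjusted p = 1.00 from limma) in place of -0.23.

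The signs at day 1 depended on those 2 arrays as well. With all arrays the median difference at day 1 was 0.07, and 0.03 over all clusters. Without them it was -0.04, with 4 genes above and 6 below 0 (55.1% of all clusters above 0). Hspd1, Hspe1, Hspa9, Lonp1 and Opa1 then had the opposite sign, while Ppargc1a differed by 0.20, Tfam by 0.19, Nrf1 by -0.13, Clpp by 0.0098 and Mfn2 by 0.0067. None had an adjusted p under 1.00 from limma.

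Marker genes of other cell types were compared at day 14 as well, and only red cell genes passed limma. The mean of 3 red cell genes, the globin genes Hbb-b1 and Hba-a1 and the heme synthesis gene Alas2, was 13.29 ± 0.54 in the controls and 9.40 ± 1.52 in the treated rats (SD, n = 4), and 2 of the 3 passed limma. The mean of 6 astrocyte genes was 12.14 to 12.43 in the controls and 11.93 to 12.09 in the treated rats, without overlap, and 5 of 6 genes had a mean difference below 0. The mean of 7 oligodendrocyte genes was 14.39 to 14.67 and 14.19 to 14.56, with 6 of 7 differences below 0. That of 6 microglial genes was 8.62 to 8.74 and 8.42 to 8.61, also without overlap and with 5 of 6 differences below 0. The mean of 4 endothelial genes was 9.46 to 9.75 and 9.08 to 9.72, with 4 of 4 differences below 0. That of 10 choroid plexus genes was 6.36 to 7.27 and 6.43 to 9.71, with 10 of 10 differences above 0. Treated replicates 1 and 3 had 9.71 and 8.19, and treated replicates 2 and 4 had 6.48 and 6.43. The mean of 7 neuronal genes was 15.18 to 15.45 and 15.31 to 15.44, with 5 of 7 differences above 0. None of the astrocyte, oligodendrocyte, microglial, endothelial, choroid plexus and neuronal genes passed, and their smallest adjusted p was 0.292 (Aqp4, an astrocyte gene, limma). How often means of as many other genes lie without overlap was not computed. The part of these cell types in the differences of Hspd1, Hspe1, Lonp1 and Mfn2 was not tested.

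The other genes of these functions gave a similar picture. The 6 lists held 88 measured genes, the 10 included. None of the 88 passed limma at day 1, day 3, day 14 or for the average. At an unadjusted p under 0.05 there were 5 (5.68%), 0, 12 (13.6%) and 9 (10.2%), beside 7.65%, 3.17%, 10.8% and 10.8% of all clusters. Without the 2 arrays with cerebellar transcripts there were 1 at day 1 (1.14%, beside 3.27%) and 12 for the average (13.6%, beside 9.11%). The 1 gene was Chac1, with -0.34 in place of 0.02 (adjusted p = 1.00 from limma). At day 14, 29 were above and 59 below 0, with a median of -0.06, while the median of all clusters was 0.05. This split moved with the scaling, to 41 above and 47 below 0 after quantile normalization and to 8 above and 80 below 0 with the arrays centred on their median.

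Of 23 genes of matrix chaperones and import, 19 were below 0 at day 14 and 4 above (61.4% of all clusters), with a median of -0.08. After quantile normalization 14 were below 0, and with centred arrays 23. Hspe1 had the smallest p at day 14 and Hspd1 at day 3, and for the average it was Grpel2, a nucleotide exchange factor of Hspa9, with -0.12 (adjusted p = 0.442 from limma). At day 1 it was Tomm5, a small subunit of the outer membrane translocase, with 0.21 (adjusted p = 0.705 from limma), and -0.05 without the 2 arrays with cerebellar transcripts. Grpel2 had -0.07 for the average without them. Between the controls of day 14 and day 1, 21 of the 23 were above 0 (48% of all clusters). Timm17a, a subunit of the inner membrane translocase, differed by 0.24 there (adjusted p = 0.267 from limma). With the 2 arrays left out, 20 of 23 were above 0 (47.4% of all clusters) and Timm17a differed by 0.12.

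Of 16 genes of proteases and processing, 10 were below 0 at day 14, 7 after quantile normalization and 16 with centred arrays. Htra2, a serine protease of the space between the membranes, had a mean of 8.72 in the controls and 8.48 in the treated rats. All 4 treated rats were below all controls, as in 2.81% of all clusters. Its difference of -0.24 (standard error 0.08, unadjusted p = 0.00857, adjusted p = 0.344 from limma) was of the size of that of Lonp1. Genes of these lists given as without overlap at day 14 were named for the smallest p of their list or after their values were seen. Their lack of overlap is therefore no separate result, and how many of the 88 genes had none was not counted. Oma1, the protease that cuts Opa1 under stress, had the smallest p of this list at day 1 (difference 0.14) and day 3 (difference 0.13), with a difference of -0.13 at day 14. At day 1 it had 0.0051 without the 2 arrays with cerebellar transcripts.

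Of 25 genes of biogenesis and mitochondrial DNA, 4 had an unadjusted p under 0.05 at day 1 (7.65% of all clusters), and 0 without the 2 arrays with cerebellar transcripts (3.27%). The 4 were Nrf1, Ppargc1b, the closest relative of Ppargc1a, with -0.39 (adjusted p = 0.532 from limma), the nuclear receptor Esrrg with 0.32 (adjusted p = 0.580) and the deacetylase Sirt1, which acts on Ppargc1a, with -0.26 (adjusted p = 0.605). Ppargc1b had -0.05, Esrrg 0.12 and Sirt1 0.03 without the 2 arrays. At day 14, 18 of 25 were below 0, 15 after quantile normalization and 22 with centred arrays. Polg, the catalytic subunit of the mitochondrial DNA polymerase, differed by -0.17 (adjusted p = 0.377 from limma) without overlap, as in 2.81% of all clusters. Mterf1, which ends transcription of the mitochondrial ribosomal RNA genes, had the smallest p at day 3 (-0.18) and for the average (-0.22, adjusted p = 0.363 from limma), and Twnk, the mitochondrial DNA helicase, differed by 0.33 between the controls of day 14 and day 1 (adjusted p = 0.226), and by 0.24 without the 2 arrays.

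Of 11 fusion and fission genes, 5 were below 0 at day 14, 4 after quantile normalization and 10 with centred arrays. Mief1, which recruits the fission protein Drp1, had the smallest p at day 14, with -0.18 (adjusted p = 0.372 from limma) and no overlap, as in 2.81% of all clusters. At day 1 it was Mtfr1, a fission regulator, with -0.16 (-0.10 without the 2 arrays with cerebellar transcripts), and at day 3 the fission receptor Mff, with 0.10. Of 6 mitophagy genes, 4 were below 0 at day 14, 3 after quantile normalization and 5 with centred arrays. The receptor gene Bcl2l13 differed by -0.21 at day 14 (adjusted p = 0.381 from limma) without overlap, as in 2.81% of all clusters. Fundc1 differed by 0.29 at day 1 (adjusted p = 0.598 from limma), or 0.08 without the 2 arrays. Pink1, the kinase that marks damaged mitochondria, had the smallest p of its list at day 3, with 0.12, and differed by 0.45 between the controls of day 14 and day 1 (adjusted p = 0.220), or 0.36 without the 2 arrays.

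Of 8 genes of mitochondrial stress signalling, 4 were below 0 at day 14, 4 after quantile normalization and 5 with centred arrays. Fgf21, a hormone raised in mitochondrial disease of muscle, had the smallest p of all 88 genes at day 14. Its mean was 6.01 in the controls and 6.43 in the treated rats, close to the median cluster of the array. The difference was 0.42 (standard error 0.13, 95% interval 0.16 to 0.69, unadjusted p = 0.00318, adjusted p = 0.281 from limma), all 4 treated rats were above the control mean, and the groups overlapped. Atf5, which drives the mitochondrial unfolded protein response in mammalian cells, differed by -0.26 (adjusted p = 0.412 from limma) without overlap, as in 2.81% of all clusters. Dele1, which relays mitochondrial stress to the cytosol, differed by -0.23 (adjusted p = 0.385 from limma). Trib3, a target of the integrated stress response, had the smallest p at day 3, with -0.26 (adjusted p = 1.00 from limma). Chac1, which is induced by the same response, differed by 0.55 between the controls of day 14 and day 1 (adjusted p = 0.224), or 0.19 without the 2 arrays with cerebellar transcripts.

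**Figure D4:**
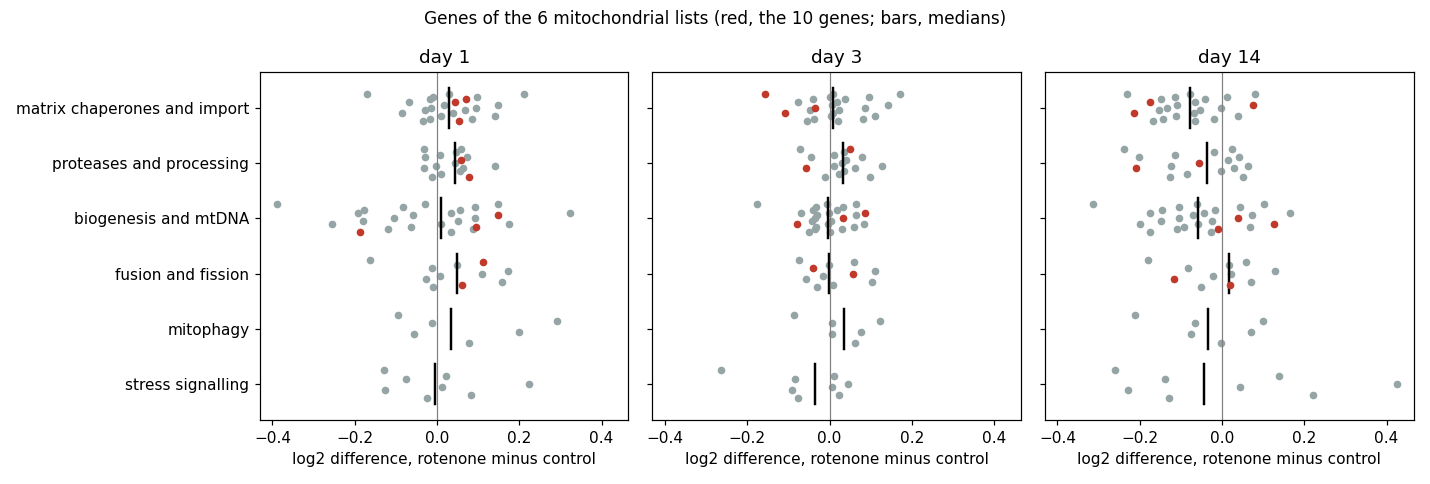
Difference in log2 intensity, rotenone minus control, of each measured gene of the 6 mitochondrial lists (rows) at days 1, 3 and 14. Red points are the 10 genes and black bars the medians. At day 14 the list of matrix chaperones and import lies mostly left of 0, with 19 of 23 genes below it in the values as deposited, 14 of 23 after quantile normalization and 23 of 23 with centred arrays.

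Across arrays, the levels of some of the 10 genes varied together. With the group means removed, so that treatment and day were taken out, Pearson's r over the 24 arrays was 0.70 for Hspd1 with Opa1, 0.66 for Hspe1 with Mfn2, 0.64 for Hspa9 with Opa1, 0.62 for Hspe1 with Hspa9, -0.57 for Hspd1 with Tfam, 0.57 for Hspa9 with Lonp1 and 0.56 for Clpp with Tfam, the 7 largest in size. Without the 2 cerebellar arrays and with the group means left in, the same pairs had 0.44, 0.65, 0.61, 0.31, -0.37, 0.12 and 0.66 over 22 arrays. Hspd1 and Hspe1, which share their upstream region, had 0.40 and 0.62 in these ways. Among the regulators, Ppargc1a with Nrf1 had 0.41 and -0.02, Ppargc1a with Tfam 0.12 and 0.27, and Nrf1 with Tfam 0.15 and -0.13. The first set of values holds the 2 cerebellar arrays and the second holds treatment and day, so neither is free of both. The points share the tissue sample and the brightness of the array, and these values are descriptions without a test.

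**Figure D5:**
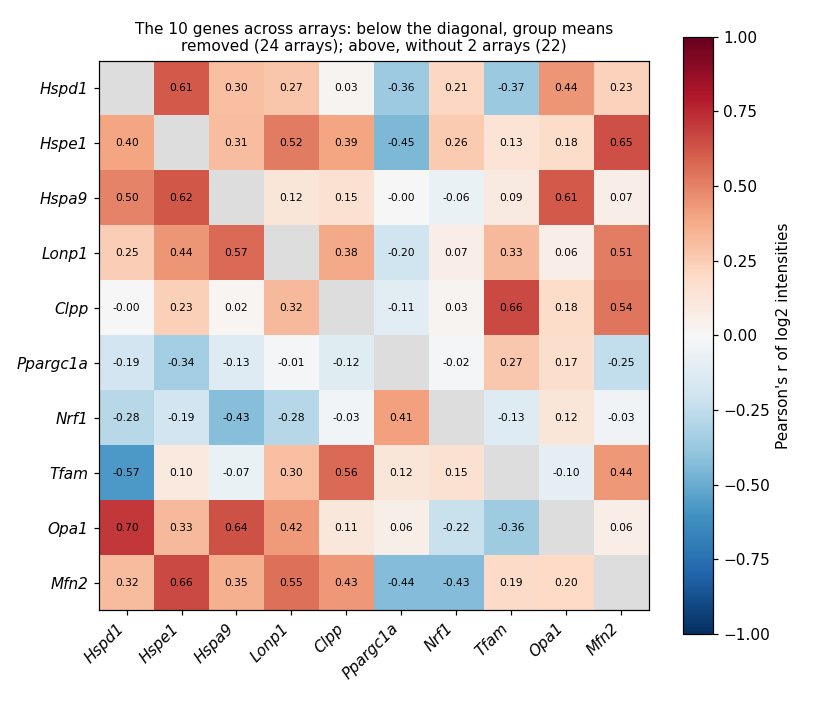
Pearson's r between the log2 intensities of the 10 genes, below the diagonal over 24 arrays with group means removed and above it over 22 arrays without the 2 cerebellar control arrays. Hspe1 with Mfn2 is 0.66 below and 0.65 above the diagonal.

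Among 14462 other genes brighter than the median cluster, those with the most similar pattern over the 24 arrays were listed for each of the 10. For Hspd1 they were Anapc5 (Pearson's r = 0.87), a subunit of the anaphase promoting complex, and Hccs (0.83), which attaches heme to cytochrome c. For Hspe1 they were Dlst (0.89), a subunit of 2-oxoglutarate dehydrogenase, and Mien1 (0.87). For Hspa9 they were Iars2 (0.80), the mitochondrial isoleucyl-tRNA synthetase, and Frs2 (0.78). Opa1 was closest to Dlat (0.87), a subunit of pyruvate dehydrogenase, and Ube2v2 (0.87), and Mfn2 to Ndufa1 (0.92), a subunit of complex I, and the proteasome subunit Psmb4 (0.91).

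Lonp1 was closest to Scarb2 (0.92), a lysosomal membrane protein, and Cadm4 (0.89), and Clpp to Aff3 (0.86) and Mypop (0.85). Ppargc1a was closest to Bhlhe40 (0.73), a transcription factor of the circadian clock, and Tbc1d4 (0.72), Tfam to Bcl7a (0.76) and the ribosomal protein gene Rpl3 (0.74), and Nrf1 to Dgkz (0.83) and Srrm2 (0.82). Of these 20 values, the lowest without the 2 cerebellar arrays was that of Hspa9 with Frs2 (0.64). The genes were chosen for their high values over the same arrays, so these values are descriptions and no test of likeness.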

How the data were processed

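The authors hybridized brain stem RNA of 4 rats in each of 6 groups to RTA 1.0 arrays, corrected the probe signals by their GC content (GCCN), transformed them (SST) and summarised each cluster by RMA, which the submitters' processing notes name without a version. The deposited values are intensities on a linear scale, 1 for each of 70580 entries. Without the 1738 control probe sets, 68842 clusters remained, and their values were put on the log2 scale and not normalized again. The arrays had median intensities of 70.7 to 82.6, and the precision is limited by the number of arrays. The aligner and build of the probe design are not given in the sources used here. Symbols came from the platform annotation: 23446 clusters had 1, 505 several and 44891 none, and the gene identifiers of all 10 genes matched RefSeq.

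A mean for each group was fitted with limma 3.58.1 in R 4.3.3 (18 residual and 3.64 prior degrees of freedom), with Benjamini-Hochberg adjustment over 68842 clusters and a threshold of 0.05. The script was tested on simulated data. Differences of 4 rats against 4 were also tested by a two-sided exact permutation test. Named were the 10 genes, from each list the gene with the smallest p in a comparison, and for each of the 10 the 2 genes of most similar pattern. Esrrg, Sirt1, Atf5 and Dele1 were named after their values were seen. The 10 genes, the lists and the markers were chosen with earlier results of these data known. Alternatives were quantile normalization, centring, trend and robust moderation, bright clusters only, the mean of a symbol's clusters, a replicate block, array weights, only the arrays of a day, a version of the criteria of the study, and arrays left out. Promoter windows came from RefSeq (GRCr8). Plots were made in Python 3.11.15 with matplotlib 3.10.9.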

Additional observations from a re-analysis of the deposited data

Results flagged for a closer look

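In 3 of the 60 groups of 4 arrays, 1 array was far from the other 3 by Dixon's criterion, and chance alone would single out about 1 group in 20. Hspe1 was 13.43 in rotenone day 14 replicate 1 and 13.16 to 13.20 in the other 3 treated rats. This array also had the highest mean of the choroid plexus genes of all arrays, 9.71. Rotenone day 14 replicate 3 had 8.19 for these genes and 13.20 for Hspe1. Ppargc1a was 11.70 in control day 14 replicate 1 and 11.17 to 11.24 in the other 3 controls. Opa1 was 12.54 in rotenone day 3 replicate 4 and 12.69 to 12.72 in the other 3 treated rats. Their causes were not tested.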

How the results depend on the processing

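The number of the 10 genes past limma was 0 in each comparison of treated with control rats under every alternative run for it, 24 that left out 1 array and 9 others at each day, or 8 others for the average. Signs were compared for 48 differences, of which 28 kept their sign under every alternative and 20 did not. They were those between treated and control rats for the 10 genes at each day and for the average. Added were those of only Hspd1, Hspe1, Lonp1 and Mfn2 for the change from day 1 to day 14 and between control days 14 and 1. None of the added differences changed sign, so all 20 that did were between treated and control rats. Mfn2 was called once, between the controls of day 14 and day 1 (0.36, adjusted p = 0.0359 from limma) without control day 1 replicate 4. That fit kept the 2 cerebellar arrays among the controls of day 1, which had the lowest Mfn2 levels of all arrays (11.40 and 11.38). Without these 2 arrays the difference of Mfn2 was 0.22 (adjusted p = 0.998 from limma), so the call rested on them. The number of all clusters called at day 14 was 26, and 25 to 106 under quantile normalization, centring, moderation, filters and array weights or with the means of a symbol, 71 without the 2 cerebellar arrays, 0 with only the arrays of that day and 0 to 154 without 1 array.

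The replicate block gave 14 clusters at day 14 and 0 of the 10 genes. Arrays with the same number did not deviate together (correlations -0.18 to 0.12, 1 of 12 over 0.1), and the main fit did not pair rats by number. The labels call the number a biological replicate and do not say whether it pairs rats.

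Without both cerebellar arrays, the median of the 10 genes at day 1 was -0.042, and the differences were -0.078 for Hspd1, -0.068 for Hspe1, -0.040 for Hspa9, -0.043 for Lonp1 and -0.044 for Opa1. For the average they were -0.00071 for Hspa9, -0.021 for Opa1 and -0.017 for Mfn2. With arrays centred on their median, the median at day 14 was -0.12, with -0.016 for Hspa9, -0.053 for Tfam and -0.070 for Opa1, and for the average -0.013 for Hspa9, -0.030 for Opa1 and -0.026 for Mfn2. Centring moved the median of all clusters at day 14 from 0.053 to -0.037. With quantile normalization, Clpp and Nrf1 had 0.0017 and 0.031 at day 14, and Lonp1 and Clpp 0.018 and 0.019 for the average. With array weights, Tfam had -0.0068 at day 3 and Opa1 -0.0031 for the average. The causes were not tested.

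With 1 array left out, differences at day 1 ranged from -0.0057 to 0.14 for Hspd1, from -0.020 to 0.11 for Hspe1, from -0.017 to 0.10 for Hspa9 and from -0.045 to 0.11 for Clpp. At day 3 they ranged from -0.082 to 0.0032 for Hspa9, from -0.013 to 0.093 for Lonp1, from -0.12 to 0.043 for Clpp and from -0.041 to 0.081 for Tfam. At day 14 they ranged from -0.13 to 0.061 for Clpp, from -0.049 to 0.028 for Nrf1, from -0.0080 to 0.10 for Tfam and from -0.0017 to 0.041 for Opa1. For the average they ranged from -0.053 to 0.021 for Clpp and from -0.0015 to 0.028 for Opa1.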
